A study of Gallus gallus with 3 samples.

Results

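Mesoderm that the authors annotated as extraembryonic lateral plate was compared with mesoderm that they annotated as splanchnic lateral plate, in chick forelimb field tissue at Hamburger-Hamilton stage 14 (HH14, labelled embryonic day 2.5). All cells of the HH14 library with either class name in the deposited annotation were taken. They were 85 extraembryonic and 215 splanchnic cells, together 300 of the 1313 cells of the library and of the 3262 cells of the series. Both groups came from the same wild-type, untreated embryos, male and female pooled, and from 1 dissection of the tissue beside the somites, read as 1 library of 10x Genomics 3' RNA profiles. The series holds 1 further library each from stages 10 and 18. There was 1 library per stage, so no test was made and no p-value is given. The authors drew the classes from the same expression values, so the differences describe the classes and are no independent evidence for them.

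The lateral plate is the mesoderm at the side of the embryo. It splits into a somatic layer, which lies under the ectoderm and gives rise to body wall and limb mesenchyme, and a splanchnic layer, which lies on the endoderm and gives rise to the connective tissue and smooth muscle of the gut and to part of the heart. Beyond the body of the embryo both layers continue as extraembryonic mesoderm, the somatic layer into amnion and chorion and the splanchnic layer into the yolk sac, where the first blood and vessels form.

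UMIs (unique molecular identifiers, each a tagged RNA molecule) of all cells of a class were added up for each gene. Levels are in CPM, a gene's UMIs divided by all UMIs of the sum and scaled to the same total for both classes. The extraembryonic sum held 1122601 UMIs and the splanchnic sum 1855115. The median cell had 12560 UMIs in the extraembryonic class (2049 to 34368) and 7183 in the splanchnic class (2084 to 30272). Values in parentheses after a level, a fold or a share are exact 95% intervals and cover counting error only, not the spread between embryos. A gene was measured where both sums together held 30 or more UMIs. Genes with few UMIs in either class reached that minimum mainly through the other class, so list counts with such genes are no independent support. The 2-fold mark was passed by 486 of 7036 measured genes (6.91%), 265 of them (3.77%) higher in the extraembryonic class and 221 (3.14%) lower. The median log2 fold over all measured genes was 0.16 toward the extraembryonic class. Relative to that median the split was 163 higher and 293 lower, so the balance of the counts turned with the scaling. The interval bound nearest to 1 itself passed 2-fold for 41 genes (0.583%) that were higher and 63 (0.895%) that were lower.

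**Figure D1:**
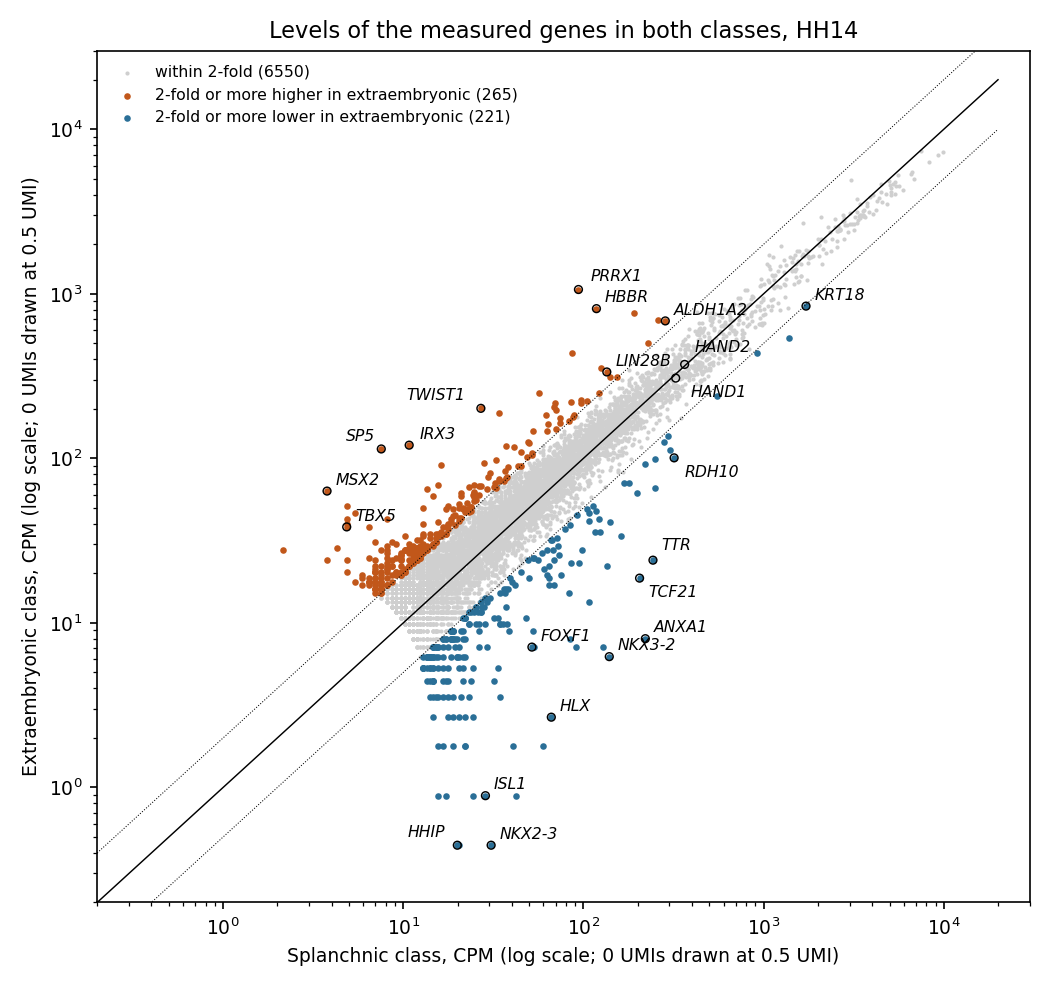
Level of each measured gene in the splanchnic class (x axis, CPM, log scale) and in the extraembryonic class (y axis, CPM, log scale), with 1 point per gene. The solid line marks equal levels and the dotted lines a 2-fold difference. PRRX1 lies far above the lines, the gut mesenchyme factors far below, and HAND1 and HAND2 on the line of equal levels.

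The extraembryonic class drew on several of the broader classes of the annotation. By the authors' first-level classes, 64 of its 85 cells were lateral plate mesoderm, 13 primitive streak, 5 primitive mesoderm, 2 gut derivatives and 1 blood vessel. The 13 cells of the primitive streak class were shallow, with a median of 3017 UMIs, and a median of 11.9% of their UMIs came from ribosomal protein genes. That share was 21.4% in the 64 lateral plate cells and 25.1% in the splanchnic class. Of the 215 splanchnic cells, 195 were gut derivatives and 16 lateral plate mesoderm at the first level. The single blood vessel cell of the extraembryonic class held 2130 haemoglobin UMIs. Results that rest on it are given with and without it, except the marker sums below. With the cells limited to the most common first-level class of each, 64 against 195, 261 genes were higher and 248 lower, a limit chosen after the data were seen.

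The marker list fixed for the name extraembryonic did not sum highest in the class of that name. The 12 genes of that list summed to 1735 CPM in the class of that name, 2986 CPM in the splanchnic class and 4436 CPM in amnion. Keratin 18 (KRT18), which is also abundant in endoderm and gut classes, made up 945 of the 1948 UMIs of that sum in the extraembryonic class. GATA3 and POSTN had 4 and 1 UMIs there, against 0 and 21 in the splanchnic class. TBX20 had 0 UMIs and KDR 3 in each of these 2 classes. The other members also differed in direction. BMP4 (82.0 against 49.1 CPM) and TBX3 (30.3 against 12.9 CPM) were higher in the extraembryonic than in the splanchnic class. GATA2 was at 32.1 against 21.6 CPM, a fold of 1.49 (0.921 to 2.39). Without the single blood vessel cell GATA2 was at 24.3 against 21.6 CPM, a fold of 1.13 (0.666 to 1.89). KRT18 (842 against 1719 CPM), DCN (298 against 449 CPM), VIM (113 against 302 CPM) and ANXA2 (23.2 against 94.3 CPM) were lower, and HAND1 was at 307 against 325 CPM. The list of somatic layer markers instead summed to 1557 CPM in the extraembryonic class, 167 CPM in the splanchnic class, 1161 CPM in somatopleure and 1927 CPM in amnion. PRRX1 alone made up 1192 of the 1748 UMIs of that sum in the extraembryonic class. IRX3, IRX5, TBX5, TWIST1, MSX1 and MSX2 were also higher there than in the splanchnic class. LIX1 had 0 UMIs against 11, and EMX2 had 1 in each. The splanchnic list summed to 1112 CPM in the extraembryonic and 1674 CPM in the splanchnic class. It summed higher in amnion (3252 CPM), gut (2432 CPM), undifferentiated lateral plate class 1 (2110 CPM) and flank lateral plate (1915 CPM). Of its 1248 extraembryonic UMIs, HAND1 held 345, HAND2 418, GATA5 276 and GATA6 163. Both class names are therefore used only as the annotation gives them. Amnion and flank lateral plate also held PRRX1 together with HAND1 and HAND2, so these genes do not single the extraembryonic class out.

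Markers of other tissues were summed in the same way. The blood list, with 6 of 8 genes at 0 in the extraembryonic class, summed to 21.4 CPM there, 5.39 CPM in the splanchnic class and 1682 CPM in the blood vessel class. Endothelial markers summed to 111 CPM, 49.6 CPM and 5220 CPM in the same order. EGFL7 alone held 70 of the 125 endothelial UMIs of the extraembryonic and 46 of the 92 of the splanchnic class. In the blood list LMO2 and SLC4A1 held 15 and 9 of the 24 extraembryonic UMIs. The single blood vessel cell held 1 of these LMO2 UMIs, and no marker sum was taken without that cell. Endoderm markers summed to 107 CPM in the extraembryonic class, 409 CPM in the splanchnic class and 10712 CPM in endoderm. Of these 18 genes, 7 were at 0 in each of the classes compared. TTR and APOA1 held 451 and 227 of the 759 splanchnic UMIs of that list and 27 and 48 of the 120 extraembryonic UMIs. Neural and neural crest markers summed to 129 CPM and 93.3 CPM. Intermediate mesoderm markers summed to 169 CPM in the extraembryonic and 94.3 CPM in the splanchnic class, against 757 CPM in the intermediate mesoderm class. OSR1 and SALL1 held 133 and 40 of the 190 extraembryonic UMIs and 110 and 51 of the 175 splanchnic UMIs. The other members held 0 to 7 UMIs each in the extraembryonic class. The blood, endothelial, endoderm and intermediate mesoderm sums thus lay below those of the tissues themselves, and none was at 0. Heart muscle markers summed to 9.80 CPM and 37.7 CPM in the extraembryonic and splanchnic classes. The somite and ectoderm lists each summed to 35.6 CPM and 30.7 CPM, against 1808 CPM of the somite list in somitic mesoderm. The part of such cells or of free RNA in the differences below was not tested.

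Among the 25 gene lists, that of gut mesenchyme transcription factors had the most extreme median fold. All 8 measured members, of 17 listed, were below the 2-fold mark in the extraembryonic class. Their median log2 fold was -3.83, against 0.16 over all genes, of which 3.14% were lower. The measured members named here and in the next paragraph held 0 to 21 extraembryonic UMIs. They reached the count minimum mainly through the splanchnic class, so the count and the median are no independent support. NKX3-2, a homeodomain factor of the visceral mesoderm, spleen and skeleton, had 7 UMIs (6.24 CPM) in the extraembryonic and 258 UMIs (139 CPM) in the splanchnic class, 22.3-fold lower (10.7 to 56.0). TCF21, a factor of visceral and coelomic mesenchyme, was at 18.7 CPM against 205 CPM, 11-fold lower (7.06 to 17.9). HLX, needed for growth of gut and liver mesenchyme in the mouse, had 3 UMIs against 123. FOXF1, a forkhead factor of the splanchnic layer that responds to Hedgehog signals, was at 7.13 CPM against 51.7 CPM, 7.26-fold lower (3.54 to 17.3). Among first-level lateral plate cells, 64 against 16, NKX3-2 was at 3.05 against 38.2 CPM and TCF21 at 16.3 against 252 CPM. HLX was at 2.04 against 38.2 CPM there and FOXF1 at 6.11 against 30.6 CPM.

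The scarcer factors of this group pointed the same way. ISL1, a LIM-homeodomain factor of second heart field and pharyngeal splanchnic mesoderm, had 1 UMI against 53, a ratio of 32.1 with an interval of 5.51 to 1290.4. BARX1, a stomach mesenchyme factor, had 1 UMI against 29, a ratio of 17.5 with an interval of 2.91 to 717. NKX2-3, a factor of gut and spleen mesenchyme, had 0 against 57, which makes it at least 11.5-fold lower when 3 UMIs over the group are put in place of the 0. The other 9 listed genes fell short of 30 UMIs, among them FOXF2 with 1 UMI against 12.

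HAND1, HAND2 and GATA6, which are known from the heart-forming and ventral lateral plate, lay close to equal levels in both classes. HAND1, a basic helix-loop-helix factor abundant in extraembryonic and ventral mesoderm, was at 307 CPM (276 to 342) in the extraembryonic and 325 CPM (300 to 352) in the splanchnic class, a fold of 0.945 (0.826 to 1.08). HAND2 was at 372 CPM and 364 CPM, a fold of 1.02 (0.902 to 1.16). GATA6, a zinc finger factor of lateral plate and endoderm, was at 145 CPM and 150 CPM, a fold of 0.965 (0.791 to 1.18). For each of these 3 genes the interval of the fold covered 1 and lay between 0.791 and 1.18.

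GATA5 was slightly lower in the extraembryonic class, at 246 CPM against 287 CPM, a fold of 0.856 (0.737 to 0.991). GATA4, of the same subfamily, stood apart from both, with 5 UMIs in the extraembryonic and 59 in the splanchnic class, 7.14-fold lower (2.89 to 22.8). GATA2, a factor of blood progenitors, had 36 and 40 UMIs, or 27 and 40 without the single blood vessel cell, and GATA3 had 4 and 0. Among the T-box factors, TBX5, which initiates the forelimb, had 43 UMIs in the extraembryonic and 9 in the splanchnic class, 7.90-fold higher (3.80 to 18.4), and TBX3 was 2.34-fold higher (1.35 to 4.13). In all, 2 of 9 measured members of this list of 14 were at least 2-fold higher and 1 was lower, against 3.77% and 3.14% of all genes. TBX5 came to a log2 fold of 0.93, under 2-fold, among first-level lateral plate cells, where 16 splanchnic cells remained.

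Among factors of the somatic layer and limb, 6 of 13 measured members, of 21 listed, were at least 2-fold higher in the extraembryonic class. Another 7 were within 2-fold and 0 were lower, and the list's median log2 fold was 0.80. Over all measured genes 3.77% were higher. PRRX1, a homeodomain factor of somatic and limb mesenchyme, was at 1062 CPM (1002 to 1124) in the extraembryonic and 93.8 CPM (80.4 to 109) in the splanchnic class, 11.3-fold higher (9.65 to 13.4). IRX3, an Iroquois factor of proximal and anterior limb mesenchyme, was at 120 CPM against 10.8 CPM, 11.2-fold higher (6.94 to 18.8). TWIST1, a helix-loop-helix factor of mesenchyme, was at 201 CPM against 27.0 CPM, 7.47-fold higher (5.48 to 10.4). Among first-level lateral plate cells, 64 against 16, the levels lay closer together. There PRRX1 was at 1145 against 267 CPM, IRX3 at 122 against 22.9 CPM and TWIST1 at 219 against 91.7 CPM.

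MSX2, a homeodomain factor that responds to BMP signals, had 71 UMIs against 7, 16.8-fold higher (7.73 to 43.2), and its relative MSX1 was 2.57-fold higher (1.68 to 3.96). The MSX1 fold was 4.63 in female and 1.05 in male cells, and its log2 fold was 0.60 in cells outside S and G2/M phase. TWIST2 was 2.75-fold higher (1.49 to 5.25). MEIS1 and MEIS2, cofactors of HOX proteins, SALL1, SALL4, GPC3 and CRABP-I lay within 2-fold. IRX5, the neighbour of IRX3, missed the count minimum, with 21 UMIs against 0. The limb ligand FGF10 also missed it, with 27 UMIs against 2, a ratio of 22.3 with an interval of 5.61 to 194. Both genes are named because of their values.

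**Figure D2:**
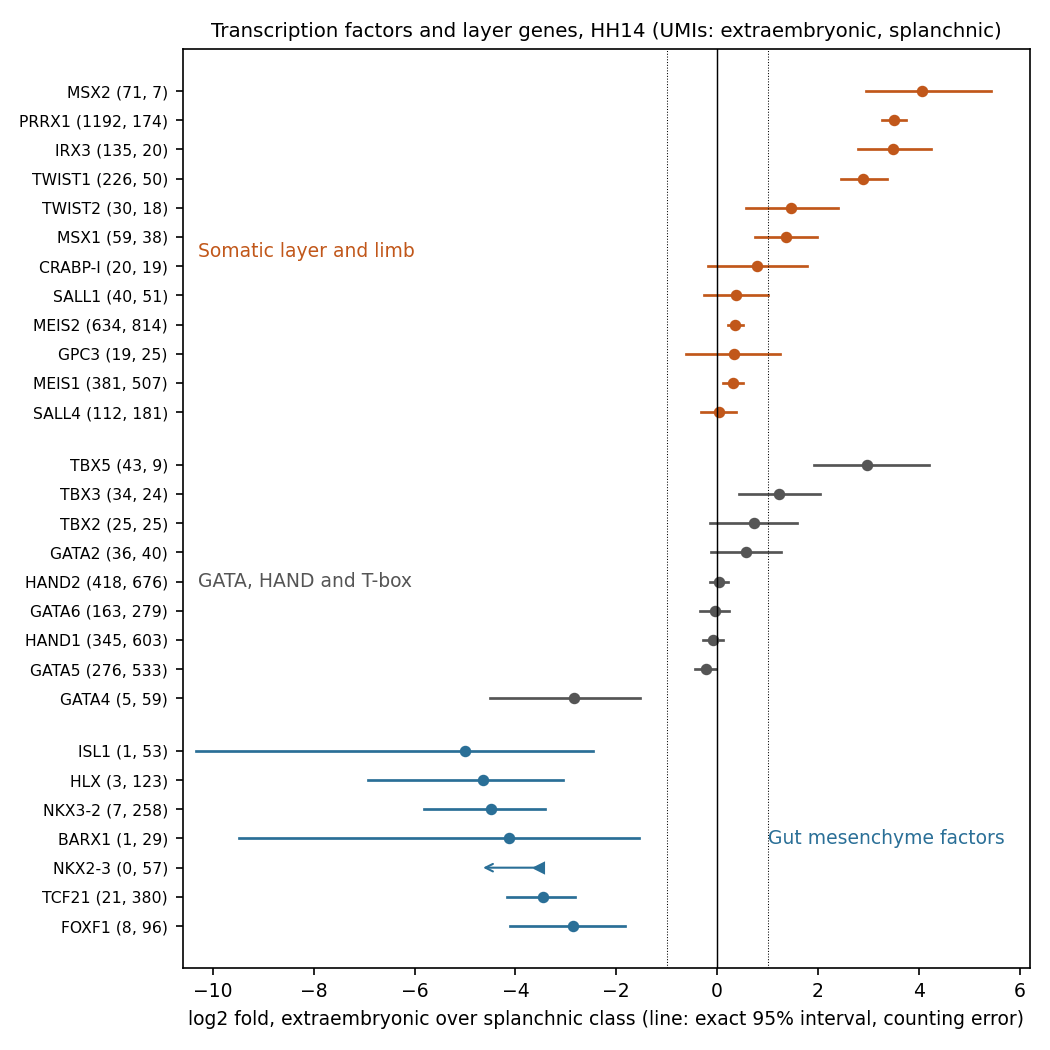
Log2 fold of the extraembryonic over the splanchnic class (x axis) for measured genes of the gut mesenchyme, GATA with HAND and T-box, and somatic layer lists (y axis, with the UMIs of both classes). Points are the ratio of the class levels, lines its exact 95% interval, the arrow a bound for a gene with 0 UMIs and the dotted lines a 2-fold difference. All 7 gut mesenchyme factors drawn lie left of -1, and HAND1, HAND2 and GATA6 lie at 0.

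The same genes were then read in single cells. The UMIs are those behind the folds, so the shares and per-cell sums below are no further support. After each cell was thinned at random to 3200 UMIs, which left out 9 extraembryonic and 21 splanchnic cells of lower depth, 69 of 76 extraembryonic cells had a PRRX1 UMI (90.8%, 81.9 to 96.2) and 48 of 194 splanchnic cells (24.7%, 18.8 to 31.4). Endoderm, which should lack the gene, had it in 3 of 24 cells (12.5%, 2.66 to 32.4) and blood vessels in 0 of 23. The part of background RNA in the splanchnic share was not tested. In unthinned cells the shares were 91.8% and 37.2%. TWIST1 was found in 44.7% and 9.28% of thinned cells, with 0 of 24 endoderm cells, and IRX3 in 28.9% and 3.09%, the latter no higher than the 4.17% of endoderm.

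Gut factors, read on the same UMIs as their folds, showed the opposite split. TCF21 was found in 7.89% of thinned extraembryonic and 33.5% of thinned splanchnic cells, and HLX in 2.63% and 17.5%. NKX3-2 was found in 5.26% (1.45 to 12.9) and 20.1% (14.7 to 26.4), against 0 of 24 endoderm cells and 1 of 23 blood vessel cells. At this depth most splanchnic cells held no UMI of each of these 3 factors. HAND1 was found in 55.3% and 53.6%, and HAND2 in 57.9% and 58.8%.

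Summed over the somatic layer list, the thinned extraembryonic cell had a median of 8.5 UMIs (quartiles 6 and 11.25) and the splanchnic cell 3 (2 and 5). Summed over the gut mesenchyme list, the medians were 0 and 2. All 76 extraembryonic cells held more UMIs of the somatic than of the gut list. Of the 194 splanchnic cells, 111 did too, 51 held more of the gut list and 32 held equal sums. The somatic list includes the widely expressed MEIS and SALL genes, so a higher somatic sum is no mark of the somatic layer.

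**Figure D3:**
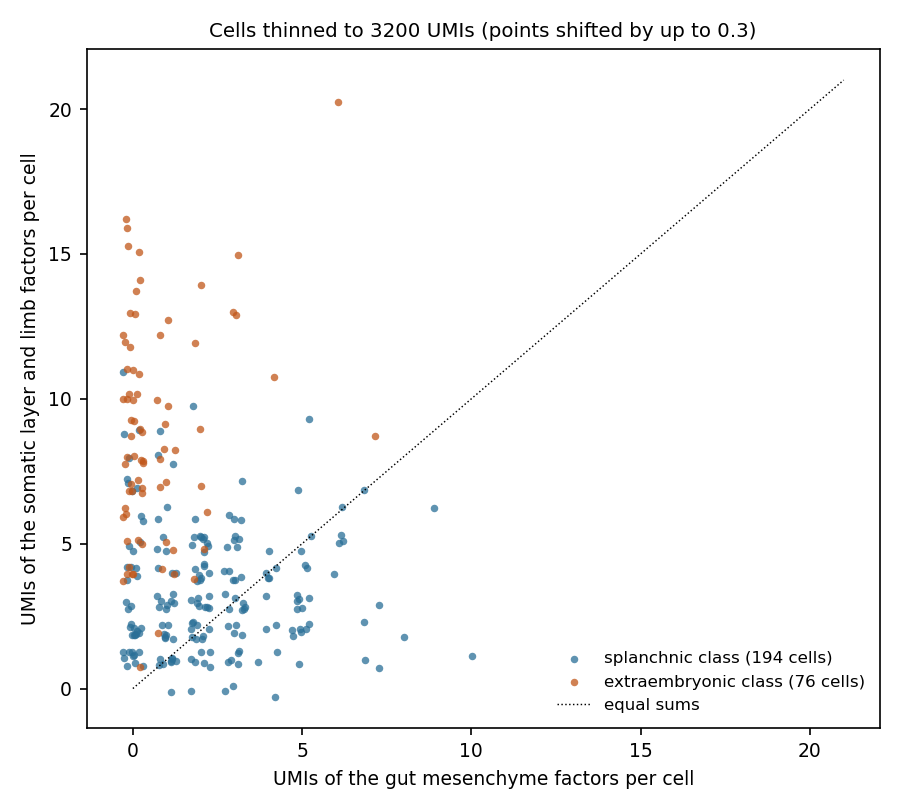
UMIs of the gut mesenchyme factors (x axis) and of the somatic layer and limb factors (y axis) in each cell after thinning to 3200 UMIs. There is 1 point per cell, shifted by up to 0.3 so that points do not hide each other. All 76 extraembryonic cells lie above the dotted line of equal sums, where 111 of 194 splanchnic cells also lie.

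HOX genes, whose order along the chromosome follows their order along the body axis, were either higher in the extraembryonic class or within 2-fold. Of 20 measured members, of 52 listed, 7 were at least 2-fold higher, 13 within 2-fold and 0 lower, and their median log2 fold was 0.74. Relative to the median of all genes 5 were higher. The share of all measured genes at least 2-fold higher was 3.77%. HOXD3 was at 68.6 CPM against 15.6 CPM, 4.39-fold higher (2.83 to 6.98), HOXD8 was 3.31-fold higher (1.80 to 6.31), and HOXA7 was at 98 CPM against 32.9 CPM, 2.98-fold higher (2.16 to 4.14). HOXC5, HOXC6, HOXA6 and HOXD4 were the others. The log2 fold of HOXA7 was 0.77 in thinned cells and 0.40 in cells outside S and G2/M phase, and that of HOXD8 was 0.26 among first-level lateral plate cells. HOXB5 was the member that leaned furthest the other way, with 215 CPM against 370 CPM, a fold of 0.580 (0.498 to 0.672). HOXA10, HOXA11 and HOXA13 had 0 UMIs in both classes, which allows up to 2.67 CPM and 1.62 CPM.

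Most of the signalling lists held members past 2-fold in both directions. Whether a pathway as a whole differed between the classes was not tested. The WNT list held members in both directions. Of 27 measured members, 4 were at least 2-fold higher and 5 lower (3 and 6 relative to the median of all genes). The shares over all measured genes were 3.77% and 3.14%. The feedback inhibitors NOTUM and NKD1 were 6.61-fold (2.98 to 16.6) and 4.83-fold (3.03 to 7.93) higher. For NKD1 the log2 fold was 0.92 among first-level lateral plate cells. The nuclear effector LEF1 was 2.61-fold higher (1.84 to 3.73), and TCF7 was 2.07-fold higher but under 2-fold without the cell with most haemoglobin UMIs. Outside the list, SP5, a zinc finger factor induced by WNT signals, had 128 UMIs against 14, 15.1-fold higher (8.68 to 28.4). DACT2, an intracellular modulator of the pathway and also outside the list, was 5.62-fold higher (3.71 to 8.75).

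Among the lower members, SFRP5, a secreted WNT antagonist, had 2 UMIs in the extraembryonic and 75 in the splanchnic class, a ratio of 22.7 with an interval of 6.07 to 191. RSPO1, a secreted activator of the pathway, had 1 against 32, a ratio of 19.4 with an interval of 3.23 to 788. Both genes reached the count minimum mainly through the splanchnic class. DKK3, a secreted glycoprotein of the Dickkopf family, was at 65.9 CPM against 250 CPM, 3.79-fold lower (2.96 to 4.91). Endoderm had 777 CPM of SFRP5 and 424 CPM of DKK3. The ligand WNT5A was at 65.0 CPM and 48.5 CPM, a fold of 1.34 (0.971 to 1.85).

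In the Hedgehog list, members also differed in both directions. HHIP, which binds the ligand and is induced by it, had 0 UMIs against 37, at least 7.46-fold lower, and PTCH1, the receptor and target, had 11 against 53, 2.92-fold lower (1.51 to 6.19). GLI1, a target factor, had 2 against 21 and missed the count minimum. The ligand SHH had 1 and 3 UMIs. DISP1, which releases the ligand, and the co-receptor GAS1 were 3.31-fold (1.86 to 6.07) and 2.10-fold (1.47 to 3.01) higher. Thus 2 of 11 measured members were higher and 2 lower (1 and 2 relative to the median of all genes). The shares over all measured genes were 3.77% and 3.14%. HHIP reached the count minimum only through the splanchnic class, so the list count is no independent support. SMO, the signal transducer, was within 2-fold. The log2 fold of GAS1 was 0.91 under median-of-ratios scaling, and that of PTCH1 was -0.75 when cells were weighted equally (the mean of each cell's CPM).

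Retinoic acid is made from retinol in consecutive steps, and the enzymes of these steps differed in opposite directions. ALDH1A2, which makes retinoic acid from retinaldehyde, was at 684 CPM (637 to 734) in the extraembryonic and 285 CPM (261 to 310) in the splanchnic class, 2.40-fold higher (2.15 to 2.69). RDH10, which makes retinaldehyde from retinol, was at 101 CPM (83.0 to 121) and 319 CPM (293 to 345), 3.16-fold lower (2.58 to 3.91). STRA6, a membrane receptor that takes up retinol, was 2.05-fold lower (1.40 to 3.06). Of 9 measured members of the list 1 was higher and 2 were lower, against 3.77% and 3.14% of all genes. The receptors RARA and RARB were within 2-fold. The log2 fold of STRA6 was -0.71 with cells weighted equally, and that of ALDH1A2 was 0.98 in thinned cells and 0.82 among first-level lateral plate cells.

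The FGF list held 4 higher and 1 lower of 12 measured members (3 and 1 relative to the median of all genes). The shares over all genes were 3.77% and 3.14%. DUSP6, a phosphatase induced by FGF signals, had 27 UMIs against 9, 4.96-fold higher (2.26 to 12.0), and the receptor FGFR3 was at 502 CPM against 229 CPM, 2.20-fold higher (1.93 to 2.50), with a log2 fold of 0.97 under median-of-ratios scaling. FGFRL1, a receptor without a kinase, was 3.68-fold lower (2.42 to 5.80). Among BMP and TGF-beta genes, 1 of 23 measured members was higher and 3 were lower, against 3.77% and 3.14% of all genes. BAMBI, a pseudoreceptor induced by BMP signals, was at 184 CPM against 62.0 CPM, 2.96-fold higher (2.34 to 3.75). TGFB2, its co-receptor TGFBR3 and the target ID4 were 3.19-fold (2.01 to 5.29), 7.67-fold (2.43 to 38.8) and 2.30-fold (1.69 to 3.19) lower. In thinned cells the log2 folds of TGFB2 and ID4 were -0.86 and -0.55. BMP4 was at 82.0 CPM against 49.1 CPM, a fold of 1.67 (1.24 to 2.26), and BMP2 had a fold of 0.895 (0.533 to 1.47).

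The Notch list had 0 higher and 2 lower of 10 measured members, against 3.77% and 3.14% of all measured genes. The lower ones were the target factors HEY1 (2.21-fold, 1.38 to 3.67) and HEYL (2.07-fold, 1.07 to 4.32). With cells weighted equally both were under 2-fold, with log2 folds of -0.58 and -0.13, and HEY1 was 1.36-fold lower in male cells. Among left-right and NODAL genes, CFC1, a NODAL co-receptor, was at 35.6 CPM against 116 CPM, 3.25-fold lower (2.31 to 4.68). Among ligands and receptors directed to vessels, 2 of 11 measured members were higher and 2 lower, against the same shares of all genes. Relative to the median of all genes 5 were lower. The neuropilins NRP2 and NRP1, co-receptors of semaphorins and VEGF, were 5.29-fold (2.91 to 10.2) and 2.30-fold (1.68 to 3.17) higher. For NRP1 the log2 fold was 0.15 in cells outside S and G2/M phase and 0.76 in male cells. The chemokine CXCL12 had 12 UMIs against 89, 4.49-fold lower (2.45 to 9.01), with a log2 fold of -0.73 when cells were weighted equally, and VEGFA was 1.98-fold lower (1.26 to 3.20).

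**Figure D4:**
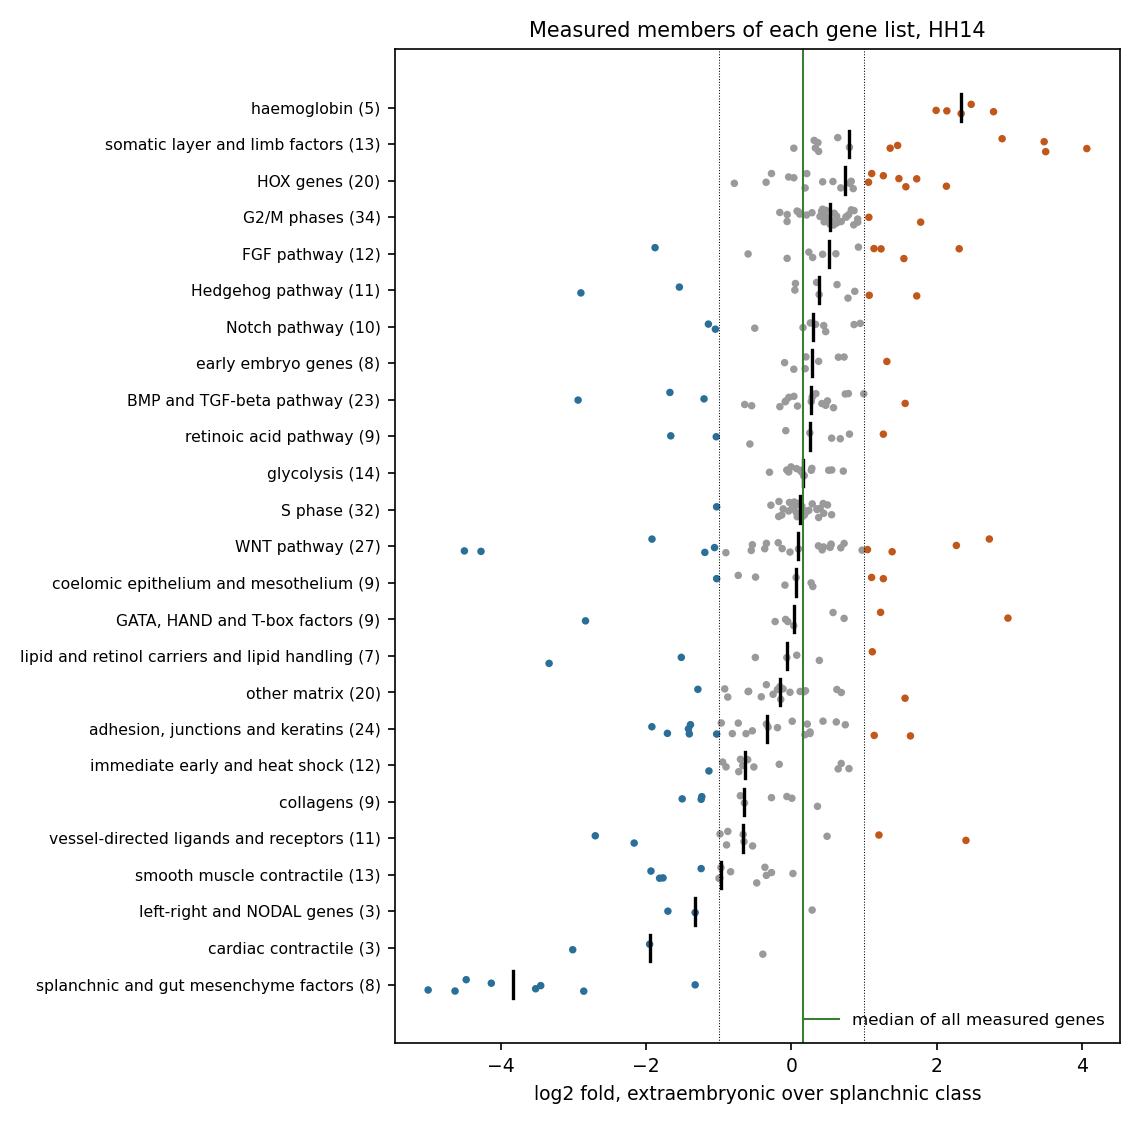
Log2 fold of the extraembryonic over the splanchnic class (x axis) of each measured member of the 25 gene lists (y axis, number of measured members in parentheses). Black bars are list medians, the green line the median of all measured genes, 0.16, and dotted lines a 2-fold difference. The gut mesenchyme list has a median of -3.83 and the somatic layer list 0.80.

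Some genes of the contractile apparatus were lower in the extraembryonic class. Of 13 measured smooth muscle genes, 0 were higher, 4 lower and 9 within 2-fold, against 3.14% lower over all genes. The list's median log2 fold was -0.97, and 8 were lower relative to the median of all genes. ACTA2, smooth muscle actin, was at 19.6 CPM against 74.9 CPM, 3.82-fold lower (2.43 to 6.30). MYLK, myosin light chain kinase, was 3.52-fold lower (1.84 to 7.40), CSRP1, an actin-binding LIM protein, 3.41-fold (2.48 to 4.77) and CALD1, caldesmon, 2.37-fold (1.90 to 2.97). With cells weighted equally the log2 folds of ACTA2 and CALD1 were -0.60 and -0.99. The gut class had 1228 CPM of ACTA2 and amnion 571 CPM. MYL4, an embryonic myosin light chain, was at 13.4 CPM against 108 CPM, 8.07-fold lower (4.78 to 14.7), and TNNT2, cardiac troponin T, had 5 UMIs against 32. MYH11, the late smooth muscle myosin, had 0 UMIs in both classes.

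Of 9 measured collagens 0 were higher and 3 lower, against 3.77% and 3.14% of all genes. The lower ones were COL4A1 (2.84-fold, 1.89 to 4.40), COL3A1 (2.37-fold, 1.85 to 3.07) and COL4A2 (2.35-fold, 1.11 to 5.57). The log2 fold of COL3A1 turned to 0.092 among first-level lateral plate cells, where 16 splanchnic cells remained. COL4A1 was 5.93-fold lower in female and 1.08-fold lower in male cells. With cells weighted equally its log2 fold was -0.51 and that of COL4A2 -0.66. Of 20 other matrix genes 1 was higher and 1 lower, against 3.77% and 3.14% of all genes, and 3 were lower relative to the median of all genes. HAPLN1, which links hyaluronan to proteoglycan, was at 204 CPM against 69.0 CPM, 2.96-fold higher (2.37 to 3.70), and AGRN, agrin, was 2.44-fold lower (1.81 to 3.36), with a log2 fold of -0.82 in thinned cells. FN1, fibronectin, had a fold of 0.896 (0.740 to 1.08).

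Of 24 measured adhesion, junction and keratin genes 2 were higher and 6 lower (1 and 7 relative to the median of all genes). The shares over all genes were 3.77% and 3.14%. ALCAM, a cell adhesion molecule of the immunoglobulin family, was at 216 CPM against 69.5 CPM, 3.11-fold higher (2.50 to 3.88). PKP2, plakophilin of desmosomes, was 3.79-fold lower (2.32 to 6.52), and VIM, vimentin, 2.67-fold (2.20 to 3.27). KRT18 was at 842 CPM (789 to 897) against 1719 CPM (1660 to 1780), 2.04-fold lower (1.90 to 2.20), although 90.8% of thinned extraembryonic and 90.7% of thinned splanchnic cells had a UMI of it. Among first-level lateral plate cells the log2 folds of ALCAM, VIM and KRT18 were 0.64, -0.31 and -0.76. CDH2, N-cadherin, was 1.76-fold lower (1.49 to 2.08). Of 9 genes of coelomic epithelium and mesothelium 2 were higher, ALDH1A2 and BNC2 (2.15-fold, 1.70 to 2.72, with a log2 fold of 0.94 under median-of-ratios scaling), and KRT18 was lower. WT1, the mesothelial zinc finger factor, had 1 and 9 UMIs.

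Genes of 2 plasma carrier proteins were lower in the extraembryonic class. Their list of lipid and retinol carriers and lipid handling had 7 measured members, with 1 higher, 2 lower and 4 within 2-fold. Relative to the median of all genes 0 were higher and 2 lower. The shares over all genes were 3.77% and 3.14%. The higher member, SCD, was 2.16-fold higher (1.42 to 3.31), with a log2 fold of 0.95 under median-of-ratios scaling. TTR, transthyretin, which carries thyroid hormone and retinol-binding protein, was at 24.1 CPM against 243 CPM, 10.1-fold lower (6.85 to 15.5), and APOA1, the main protein of high-density lipoprotein, was 2.86-fold lower (2.09 to 3.99), with a log2 fold of -0.90 when cells were weighted equally. Endoderm had 5518 CPM of TTR and 608 CPM of APOA1, and both genes belong to the endoderm marker list, in which FOXA2, SOX17 and HNF4A had 0 to 2 UMIs in either class. Of the same list, EPCAM had 26 UMIs in the extraembryonic and 36 in the splanchnic class, VTN 5 and 19, and FGB 5 and 7. The part of endodermal RNA in these values was not tested.

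Most genes of proliferation lay within 2-fold. Of 34 measured G2/M genes 2 were at least 2-fold higher, CCNB3 (3.43-fold, 1.71 to 7.24) and HMMR (2.09-fold, 1.57 to 2.79). Relative to the median of all genes 1 was higher. In this list 31 genes were above 0 and the median log2 fold was 0.53. Of 32 S phase genes 0 were higher and 1, CCNE2, was lower. Their median log2 fold was 0.12, below the 0.16 of all genes. Over all measured genes 3.77% were higher and 3.14% lower, so neither count is read as a result about these genes. The log2 fold of HMMR was 0.90 under median-of-ratios scaling. In the annotation, 45 of 85 extraembryonic cells were called G2/M (52.9%, 41.8 to 63.9) and 84 of 215 splanchnic cells (39.1%, 32.5 to 45.9), and G1 held 28 (32.9%, 23.1 to 44.0) and 107 (49.8%, 42.9 to 56.6). Phases called here on cells thinned to equal depth gave other shares, with 80.3% (69.5 to 88.5) and 54.6% (47.4 to 61.8) in G2/M. G1 then held 0 of 76 and 25 of 194 cells. The cells behind the annotated calls differed in depth between the classes. Both sets of calls had the larger G2/M share in the extraembryonic class, but the shares depended on the set. No order is read from these calls alone. The glycolysis list had 0 of 14 measured genes past 2-fold.

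The early embryo list had 1 higher and 0 lower of 8 measured members, against 3.77% and 3.14% of all genes. LIN28B, an RNA-binding protein of early embryonic cells that blocks let-7 maturation, was at 335 CPM (302 to 371) against 135 CPM (119 to 153), 2.49-fold higher (2.11 to 2.93). The log2 fold of LIN28B was 0.95 in cells outside S and G2/M phase. Its relative LIN28A was within 2-fold. MYCN, a growth-promoting factor of embryonic progenitors, was 2.80-fold higher (2.38 to 3.31), with a log2 fold of 0.78 among first-level lateral plate cells. Among immediate early and heat shock genes, 0 of 12 were higher and 1 was lower, KLF6 (2.20-fold, 1.46 to 3.41, with a log2 fold of -0.82 when cells were weighted equally), and 3 were lower relative to the median of all genes. Ribosomal protein genes made up 20.3% of all extraembryonic and 23.8% of all splanchnic UMIs. None of the 69 measured ribosomal protein genes passed 2-fold, while 60 lay below 0, with a median log2 fold of -0.18.

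The haemoglobin difference rested on 1 cell. All 5 measured haemoglobin genes were more than 2-fold higher in the extraembryonic class, from 3.98-fold for HBZ to 6.88-fold for HBBR, and the summed level was 2453 CPM against 491 CPM. Of the 2754 haemoglobin UMIs of the extraembryonic class, 2130 lay in the 1 cell of the first-level blood vessel class, 16.1% of its 13250 UMIs. The next cell held 49. That cell had 0 PRRX1 UMIs, 8 of HAND1, 9 of GATA2 and 1 of LMO2, a blood and endothelial factor. Scrublet, a doublet caller, marked 1 extraembryonic and 0 splanchnic cells, and the marked cell was another one.

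Without the cell, haemoglobin was at 562 CPM in the extraembryonic class, and the folds lay between 1.09 (0.920 to 1.29) for HBZ and 1.26 (0.928 to 1.70) for HBAD. Each of the 5 intervals then covered 1. Of the remaining 624 UMIs, 307 lay in the 13 cells of the primitive streak class. In thinned cells HBZ was found in 39.5% of extraembryonic, 41.8% of splanchnic and 54.2% of endoderm cells. The median cell of both classes held 4 haemoglobin UMIs, against 4105 in red blood cells. Of the 265 genes that were 2-fold higher with the cell, 250 were so without it, where 260 (3.7%) of all measured genes were higher in all. Of the 221 lower genes, 216 were so without it, where 227 (3.23%) were lower. PRRX1 was then 11.5-fold higher (9.76 to 13.5).

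Other genes led the ranking. In the extraembryonic class the secreted kinase relative FJX1, a regulator of planar polarity, was at 697 CPM (649 to 748) against 260 CPM (238 to 285), 2.68-fold higher (2.39 to 3.01). The matrix protein OLFML3 was 2.80-fold (2.25 to 3.50), OAF 3.21-fold (2.38 to 4.36), the actin-binding protein COTL1 3.34-fold (2.37 to 4.75) and AP5M1, a subunit of an adaptor complex, 2.81-fold higher (2.17 to 3.65). On the splanchnic side, ANXA1, an annexin that binds membranes when calcium is present, had 9 UMIs in the extraembryonic and 409 in the splanchnic class, 27.5-fold lower (14.3 to 60.6). Among first-level lateral plate cells, 64 against 16, ANXA1 was at 6.11 against 68.7 CPM. LINGO1, a leucine-rich membrane protein known from neurons, had 2 against 110, a ratio of 33.3 with an interval of 9.0 to 278.

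The secreted protein CYTL1 was 17.9-fold lower (8.95 to 42.0) and the giant cadherin FAT4 12.7-fold (6.30 to 29.9). PCP4, a calmodulin-binding peptide, was 10.5-fold lower (5.39 to 23.4). The peptide hormone SST was 7.41-fold (3.62 to 17.7), the bile acid reductase AKR1D1 6.10-fold (4.04 to 9.61) and TMEM200B 4.78-fold lower (3.40 to 6.88). An ANXA1 UMI was found in 1 of 76 thinned extraembryonic cells (1.32%, 0.0333 to 7.11) and 93 of 194 splanchnic cells (47.9%, 40.7 to 55.2), against 1 of 24 in endoderm. ANXA1 was ranked on the same UMIs, so these shares are no further support. Its level was highest in the gut class, at 801 CPM.

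Levels were also set among the 16 HH14 classes of 20 or more cells. For PRRX1 the extraembryonic class lay below limb bud mesenchyme with 1569 CPM and flank lateral plate with 1351 CPM and above amnion with 988 CPM and somatopleure with 733 CPM. The intervals of the extraembryonic class (1002 to 1124) and amnion (930 to 1049) overlapped. For TWIST1 (201 CPM) it lay near somatopleure (185 CPM) and below flank (420 CPM) and limb bud mesenchyme (611 CPM). LIN28B and OAF were highest in it among all 16. MYCN, at 352 CPM, ranked 2 of 16, below undifferentiated lateral plate class 7 with 378 CPM. It lay far above amnion with 36.7 CPM and flank with 57.5 CPM. BAMBI, at 184 CPM, ranked 3 of 16, far below amnion with 595 CPM and flank with 558 CPM.

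The splanchnic class ranked first of 16 for HLX, TCF21, BARX1, ISL1, HHIP, PTCH1, RDH10, LINGO1, FAT4, PCP4, AKR1D1 and CDH2. It lay between the extraembryonic and the gut class for ANXA1 (8.02, 220 and 801 CPM), CYTL1 (7.13, 128 and 300 CPM), ACTA2, KRT18 and TMEM200B. For NKX3-2 the order was another. The gut class had 42.5 CPM, less than the 139 CPM of the splanchnic class, and somitic mesoderm, where the gene has a known role in the sclerotome, had 145 CPM. HAND1 and HAND2 were higher in gut (1113 and 846 CPM) and amnion (1163 and 1217 CPM) than in either class.

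**Figure D5:**
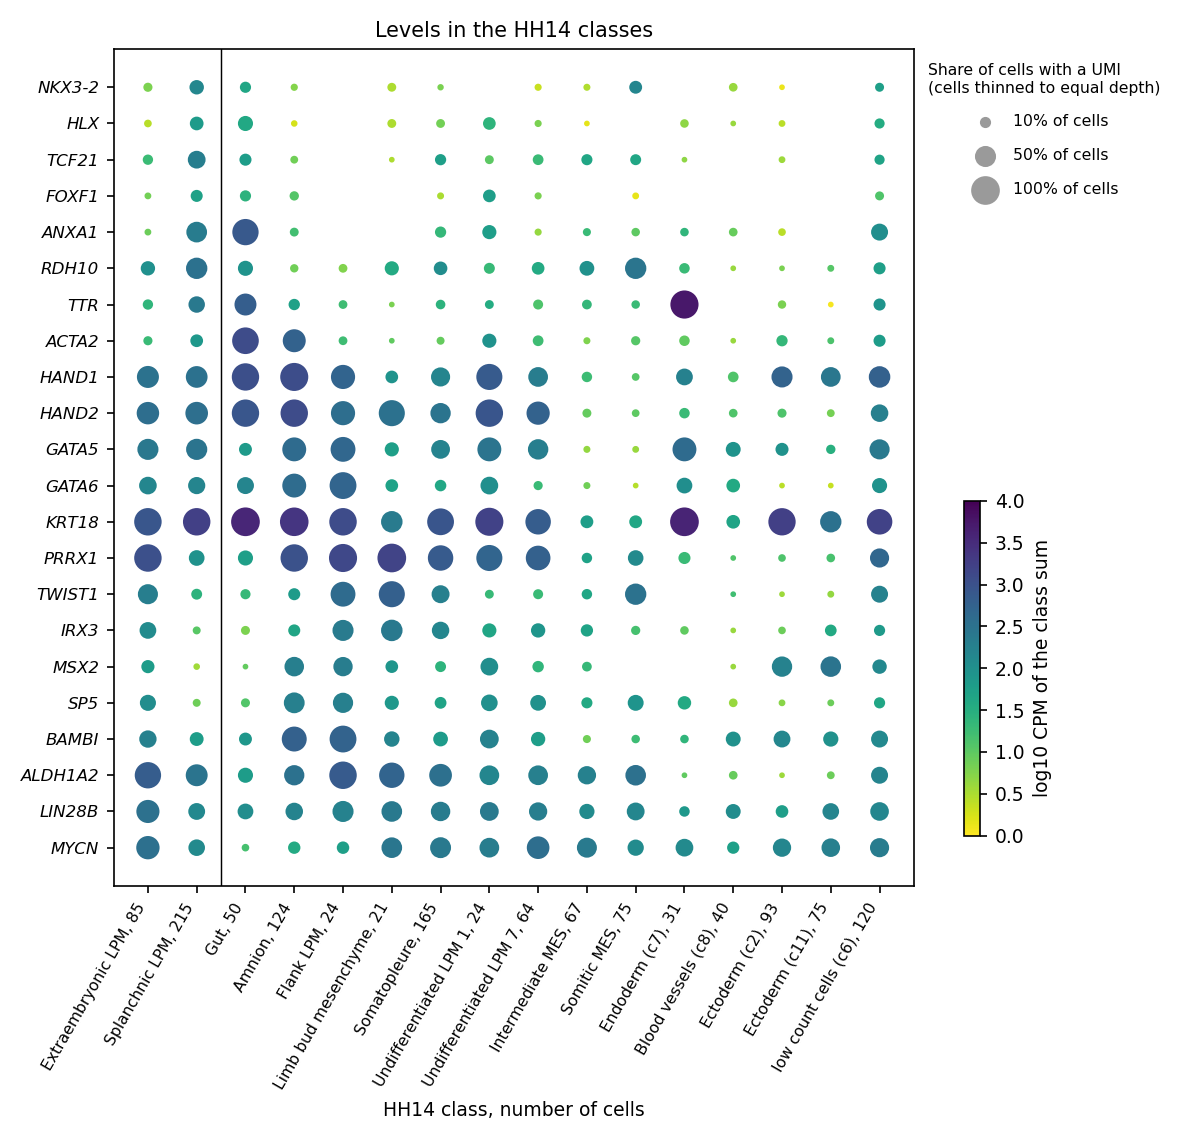
Levels of 22 genes (rows) in the 16 HH14 classes with 20 or more cells (columns, with the number of cells). Colour is log10 CPM of the class sum, and circle area grows with the share of cells with a UMI after thinning from a smallest size for a gene found only in unthinned cells, with no circle at 0 UMIs. The extraembryonic column shares PRRX1 with amnion, flank and limb bud mesenchyme, and the splanchnic column shares ANXA1 with gut.

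Pairs among the extraembryonic, splanchnic, somatopleure, amnion and gut classes were also compared, a comparison added after the data were seen. Each of these sums was drawn down to 329000 UMIs. Limb bud mesenchyme (317493 UMIs), flank lateral plate (173884 UMIs) and the undifferentiated lateral plate classes were not among the pairs. The number of cells and the UMIs per cell still differed between classes. The extraembryonic and splanchnic classes then had 8.18% of 3349 measured genes past 2-fold in either direction. The extraembryonic class had 9.73% against amnion, 14.2% against somatopleure and 18% against gut. The splanchnic class had 8.64% against amnion, 9.77% against somatopleure and 10.2% against gut. Among these shares of the extraembryonic class the one against the splanchnic class was the lowest, with 1 library behind all values. Classes outside these pairs could lie closer.

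Female cells could be told from male cells by HINTW, a gene of the female W chromosome, at 5 or more UMIs, a limit set after the values were seen. They were 47 of 85 extraembryonic (55.3%, 44.1 to 66.1) and 126 of 215 splanchnic cells (58.6%, 51.7 to 65.3), so both sexes were in both classes in like shares. Of 68 named genes past 2-fold that were measured in both sexes, 64 had the same direction in both and 51 were past 2-fold in both. They were picked on the sums of both sexes together, so agreement was favoured in advance and is no independent support. PRRX1 was 13.8-fold higher in female and 8.88-fold higher in male cells, and TCF21 12.5-fold and 9.20-fold lower. RDH10 was 3.69-fold and 2.39-fold lower. These sums come from embryos of 1 pool, so they are separate animals but not separate dissections.

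The other libraries could not repeat the comparison. The extraembryonic class had 7 of 1210 cells at stage 10 and 9 of 739 at stage 18, below the 20 cells set for a class, and the splanchnic class had 18 and 21. The 21 splanchnic cells of stage 18 had 33.6 CPM of PRRX1 (10.9 to 78.5), 195 CPM of TCF21 (131 to 280), 625 CPM of RDH10 (505 to 766) and 451 CPM of ANXA1 (349 to 572). NKX3-2 was at 74.0 CPM (36.9 to 132) and HAND1 at 1157 CPM (990 to 1343) there. HLX and GATA6 were each at 33.6 CPM (10.9 to 78.5), as PRRX1 was, FOXF1 and GATA5 were each at 60.5 CPM (27.7 to 115), and the intervals of PRRX1 and NKX3-2 overlapped. Of the cell barcodes, 1 was shared between the HH14 and HH10 libraries and 0 of the cells compared carried it.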

How the data were processed

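Per the labels' protocols, a 10x Genomics 3' kit was used. The submitters' processing notes name Cell Ranger 4.0.0 and the chicken build GRCg6a. UMI counts were deposited by the authors per gene and cell without normalization (16748 genes, 4318 of them identified by number only), with an annotation with classes, phases and, in percent of a cell's UMIs, mitochondrial and ribosomal shares computed by the authors. Their limits for cells and the clustering are not given in the sources used here. In 8 annotation columns the values were not used. Counts summed per cell equalled the annotated totals in 82.9% of HH14 cells, with differences of at most 6.

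UMIs were summed per class and divided by the class total (CPM). Levels carry exact Poisson, folds exact conditional binomial and shares exact Clopper-Pearson intervals at 95%. PCR duplicates are removed by UMIs, and the intervals cover counting error only. Where a class had 0 UMIs, 3 counts over the group stand in for them in limits, bounds and list medians. Thinning used 3200 UMIs, the 10th percentile of the pooled cells of both classes, rounded down. Python 3.11.15, numpy 2.4.6, scipy 1.17.1, pandas 2.3.3 and scanpy 1.11.5 (Scrublet with an expected rate of 2%) were used. The computation was tested on simulated data.

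Named genes were the 15 highest and 15 lowest by interval bound, given a symbol and at least 100 UMIs in both sums, without haemoglobin, mitochondrial, ribosomal and W-linked genes, up to 5 members past 2-fold of each of 25 lists (560 of 650 genes present), and a fixed set. A few others, such as FGF10, IRX5, HOXB5, LEF1, TCF7 and FOXF2, were named after their values were seen. Members, lists and tests were chosen with earlier results of these data known. A few listed genes entered the counts and are not reported by name here. Gene names are those of the files, and no sequence is given.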

Additional observations from a re-analysis of the deposited data

How the results depend on the processing

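The counts (265 genes higher, 221 lower, 486 in all, of 7036 measured) depend on scaling and on the count minimum. The number of measured genes also changed with the setting, so counts from settings with fewer measured genes are not shares. Median-of-ratios scaling gave 163 higher and 293 lower, and the mean over cells 486 higher and 213 lower. Thinned cells gave 311 of 3886 measured genes in all, with 112 lower. A minimum of 10 UMIs gave 1073 of 9105 (588 higher, 485 lower), of 100 UMIs 145 of 4006 (77, 68) and of 1 UMI 1767 of 12568 (1071, 696). A fold of 4 left 82 (26, 56) and an interval bound past 2-fold 104 (41, 63). First-level lateral plate cells only, 64 against 16 cells, gave 747 of 4703 (660, 87). Cells without a W-linked UMI, 15 against 45, gave 188 of 2708 (106, 82), and male cells gave 120 lower of 4665 measured. The cause was not tested, though these last sums hold fewer cells. Under all other alternatives the counts stayed within 1.5 times. Of 97 named genes past 2-fold, all kept their direction under either other scaling, the mean over cells, without the haemoglobin cell and without doublets, and 83 to 97 stayed past 2-fold. Other settings left fewer of them measured. Of those measured, 34 of 53 stayed past 2-fold among first-level lateral plate cells, 55 of 64 in thinned cells and 56 of 69 in male cells. The same held for 35 of 43 without a W-linked UMI, 89 of 91 with one and 64 of 74 outside S and G2/M phase. It was 75 of 81 in female cells and 87 of 94 in the most common first-level classes. The named genes were picked on the main sums, which hold the same cells, so these counts are no independent support. Reversals were COL3A1 (log2 fold 0.092, first-level lateral plate cells) and haemoglobin genes. Among first-level lateral plate cells these were HBAD (-0.63), HBBR (-0.39), HBE (-0.10) and HBZ (-0.76). Without a W-linked UMI they were HBBR (-0.42), HBE (-0.28) and HBZ (-1.12). In the most common first-level class of each they were HBA1 (-0.91), HBAD (-0.75), HBBR (-0.55), HBE (-0.45) and HBZ (-0.93). In male cells they were HBA1 (-0.56), HBBR (-0.60), HBE (-0.17) and HBZ (-0.57). None of these sums holds the cell with most haemoglobin UMIs. The splits by most common first-level class and by HINTW were chosen after seeing the data. The repeat in the other libraries was not run for want of cells. No paired analysis was possible because each stage is 1 library. With 1 library, the spread between embryos, dissections and runs is unknown. Genes near 30 UMIs have intervals several-fold wide, and absence of a UMI does not show absence of expression.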

Other observations

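Several genes outside every list differed between the classes and are given as values, chosen after they were seen. ALX1, a homeodomain factor of craniofacial and limb mesenchyme, had 31 UMIs in the extraembryonic and 4 in the splanchnic class, 12.8-fold higher (4.53 to 49.9). RBM38, an RNA-binding protein, had 58 and 9 UMIs, 10.6-fold higher (5.24 to 24.5), and EMILIN2, a matrix glycoprotein, had 52 and 10, 8.59-fold higher (4.32 to 19.0). NDNF, a secreted protein, was 4.04-fold higher (2.55 to 6.58). The gap junction gene GJA1 was at 227 CPM against 97 CPM, 2.34-fold higher (1.93 to 2.85).

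On the splanchnic side, COLEC10, a collectin, had 78 UMIs against 1 in the extraembryonic class, a ratio of 47.2 with an interval of 8.23 to 1888. PDLIM3, a protein of the actin cytoskeleton, had 38 against 0, which makes it at least 7.67-fold lower in the extraembryonic class. ZFPM2, a cofactor of GATA4, had 45 against 3 UMIs, beside 59 against 5 for GATA4 itself. S100A6 and S100A11, small calcium-binding proteins, were 3.21-fold (2.48 to 4.21) and 2.56-fold (2.0 to 3.31) lower. NPR3, the clearance receptor of natriuretic peptides, was 3.57-fold lower (2.43 to 5.41). MGST3, a membrane glutathione transferase, was at 536 CPM against 1377 CPM, 2.57-fold lower (2.35 to 2.81).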
